A study of Mus musculus with 2 samples.

Results

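The 10 genes described here encode costimulatory receptors and ligands of the tumour necrosis factor (TNF) family, chosen by name from the 32285 genes of the deposited count matrices, and all 10 were found by symbol. They form 5 receptor-ligand pairs: OX40 (Tnfrsf4) with OX40L (Tnfsf4), 4-1BB (Tnfrsf9) with 4-1BBL (Tnfsf9), GITR (Tnfrsf18) with GITRL (Tnfsf18), CD27 (Cd27) with CD70 (Cd70), and CD40 (Cd40) with CD40L (Cd40lg). Their RNA was measured in single CD45+ cells from tumours of MC38, a mouse colon carcinoma line, grown in female C57BL/6 mice that received either vehicle or LC427, of which only the code name is given. Tumours were taken on day 14 and digested, dead cells were removed, and CD45+ leucocytes were enriched on magnetic beads. Each of the 2 groups is 1 library made with 10x 5′ chemistry. The number of animals behind each library, the LC427 dose and its schedule are not given in the sources used here.

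TNF-family receptors of this kind have no enzyme activity of their own. When a ligand, usually a trimer on another cell, clusters them, they recruit TRAF adaptors and activate the NF-kB transcription factors, which favours survival, division and cytokine production. CD27 is present on resting T cells, whereas OX40 and 4-1BB appear after activation. GITR is carried by regulatory T cells and by activated T and NK cells. In tumours, OX40, GITR and 4-1BB are known as markers of regulatory T cells. CD40 works in the other direction: helper T cells display CD40L and thereby mature dendritic cells and activate macrophages, which then display CD70, OX40L, 4-1BBL and GITRL.

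Several members lie side by side in the genome (GRCm38, gene models of GENCODE). Tnfrsf4 (ENSMUSG00000029075, chr4:156013843-156016612, plus strand) and Tnfrsf18 (ENSMUSG00000041954, chr4:156026164-156028895, plus strand) are 9551 bases apart. Tnfrsf9 (ENSMUSG00000028965, chr4:150914562-150946102, plus strand) is on the same chromosome, 5067.74 kilobases before Tnfrsf4. Tnfsf4 (chr1:161395409-161418410) and Tnfsf18 (chr1:161494655-161505290) are neighbours 76244 bases apart, and Tnfsf9 (chr17:57105325-57107757) and Cd70 (chr17:57145997-57149777, minus strand) are neighbours 38239 bases apart. Cd27 is at chr6:125232622-125237010 on the minus strand, Cd40 at chr2:165055627-165072948 and Cd40lg at chrX:57212143-57224042.

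The sequences before the starts of the 3 receptors that were highest in T cells are shown because OX40, GITR and 4-1BB carry most of the results below. They are from RefSeq (GRCm38.p6), whose promoter table matched 5 of the 10 genes, on the plus strand and limited to bases with no annotated exon. For Tnfrsf9 the first of its listed starts is shown, and this window lies inside the GENCODE gene given above, not before it. The Tnfrsf18 window covers bases 250 to 159 before the start, so the 158 nearer bases, annotated as exon, were not searched. Capitals mark GGAAA or its reverse complement TTTCC, the core bound by NFAT, the transcription factor switched on by T cell receptor signalling.
Tnfrsf4 at chr4:156013611-156013694: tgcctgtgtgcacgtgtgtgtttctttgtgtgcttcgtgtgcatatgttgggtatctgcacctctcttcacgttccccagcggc
Tnfrsf18 at chr4:156026072-156026163: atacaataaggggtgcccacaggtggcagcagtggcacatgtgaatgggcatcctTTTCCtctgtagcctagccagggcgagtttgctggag
Tnfrsf9 at chr4:150919905-150920154: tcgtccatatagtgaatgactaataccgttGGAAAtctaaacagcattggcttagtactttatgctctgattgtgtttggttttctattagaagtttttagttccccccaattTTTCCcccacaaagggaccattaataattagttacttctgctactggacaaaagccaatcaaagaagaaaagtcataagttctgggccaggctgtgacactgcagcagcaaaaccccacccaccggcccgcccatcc
The core occurs 2 times in the Tnfrsf9 window of 250 bases, 1 time in the Tnfrsf18 window of 92 bases and 0 times in the Tnfrsf4 window of 84 bases. Windows of the same place and length hold it in 55.6%, 26.9% and 22.4% of 32851 promoters, so a match in such a window is common. The AP-1 motif TGANTCA, searched on both strands like the others, had 0 matches in the Tnfrsf4, Tnfrsf18 and Tnfrsf9 windows, where 2.20%, 2.26% and 6.75% of promoters hold it. The kappaB motif of NF-kB also had 0, where 1.27%, 1.33% and 3.90% of promoters hold it. A match is a description of letters, and no match says only that these letters are not in the window.

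The vehicle library held 33711726 UMIs (unique molecular identifiers, each 1 captured RNA molecule) and the LC427 library 28732435. Once low-quality barcodes and likely doublets had been left out, 5025 cells of vehicle and 6008 of LC427 remained. The median cell had 3560 UMIs in vehicle and 2424.5 in LC427 before doublet removal, and 49 cell barcodes occurred in both libraries. Levels are counts per 1000000 UMIs (CPM), from the summed UMIs of all cells of a class in a library, and "ratio" is the LC427 level divided by the vehicle level. With 1 library per group there is no test between groups, so every difference below lacks a replicate check. Ranges in parentheses are exact 95% intervals that cover counting error only, and they are too narrow because UMIs of 1 cell are not independent.

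Cells were assigned to classes by markers. CD8-like T cells (303 vehicle, 420 LC427) had a Cd8a UMI in 80.9% and 65.2% of cells. CD4/Treg-like cells (93 and 92) had Cd4 in 48.4% and 31.5% and Foxp3, the regulatory T cell factor, in 21.5% and 25%. A T-like cluster without a subset name (196 and 78) was led by Hbb-bs, Ikzf2 and Klra7, the latter an NK receptor gene. NK-like cells (353 and 154) were led by granzyme genes and had Cd3e in 3.12% and 4.55%. Of the dendritic cells (DCs), conventional DC-like cells numbered 36 and 41, mature regulatory DC-like cells, with Ccr7 in 97.7% and 96.8%, numbered 129 and 157. A cluster with immunoglobulin and plasmacytoid DC genes (42 and 59) was led by Igkc, Ighm and Jchain, genes of B and plasma cells, and is given no cell type name. Its cells had the plasmacytoid DC gene Siglech in 73.8% and 83.1%, and the B cell gene Cd79a in 23.8% and 3.39%. A cluster with Ccl17 and Retnla that carried both DC and monocyte genes numbered 131 and 321, and monocyte/macrophage-like cells 3387 and 3944.

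OX40, GITR and 4-1BB transcripts were highest in CD4/Treg-like cells in both libraries, among the 9 classes named above, and CD8-like cells came next for OX40 and GITR. For 4-1BB, NK-like cells came next in vehicle and CD8-like cells in LC427. The vehicle intervals of CD4/Treg-like and NK-like cells overlapped, so the first rank of 4-1BB is not resolved there. Tnfrsf4 had 768 CPM in vehicle CD4/Treg-like cells (658 to 890) and 722 CPM in LC427 (598 to 865) (ratio 0.941, 0.738 to 1.195). In CD8-like cells it had 129 CPM (110 to 149) and 157 CPM (132 to 184) (ratio 1.22, 0.970 to 1.53). NK-like cells had 3.92 and 9.50 CPM of Tnfrsf4, from 6 and 3 UMIs, which is under the 10.0 and 20.2 CPM of empty droplets in the same libraries. OX40 transcript was thus graded from CD4/Treg-like to CD8-like cells, with intervals that did not overlap, and NK-like cells stayed at background.

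Tnfrsf18, the GITR gene, had 631 CPM (532 to 743) in vehicle against 820 CPM (687 to 971) in LC427 CD4/Treg-like cells (ratio 1.30, 1.02 to 1.66). In CD8-like cells it had 244 CPM (218 to 272) and 289 CPM (255 to 325) (ratio 1.18, 1.00 to 1.39). The T-like cluster without a subset name had 154 and 247 CPM (ratio 1.60, 1.04 to 2.42) from 69 and 37 UMIs. The GITR level was higher in the LC427 library in these 3 T classes, while its empty-droplet level was 21.4 CPM in vehicle against 29.6 CPM in LC427, and only the last class passed 1.5-fold, the size used here to call a gene higher or lower. In that cluster 20.7% of all measured genes were higher by as much. With cells gated by their own UMIs the CD4/Treg-like ratio was 1.00. With a Cd8 UMI and no Cd4 or Foxp3 UMI the ratio was 1.06 (0.888 to 1.27). The part of the empty-droplet level in these differences was not tested. Of the CD8-like clusters, the one led by Ccl1 and Nrgn had 179 and 263 CPM (ratio 1.47, 1.14 to 1.89), and the one led by Cd8a and Ifng 341 and 313 CPM (ratio 0.919, 0.735 to 1.15). After each cell was thinned to 1000 UMIs, to remove the difference in depth, a Tnfrsf18 UMI was found in 38.7% (28.8 to 49.4) of CD4/Treg-like cells in vehicle against 54.3% (43.6 to 64.8) in LC427. Without thinning these shares were 61.3% and 70.7%, at median depths of 1720 and 1492.5 UMIs. The thinned share in monocyte/macrophage-like cells, which should lack GITR, was 0.118% and 0.558%.

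Tnfrsf9, the 4-1BB gene, differed little between the libraries in T cells. CD4/Treg-like cells had 1072 CPM (941 to 1216) in vehicle against 1132 CPM (974.9 to 1308) in LC427 (ratio 1.06, 0.868 to 1.28). CD8-like cells had 681 CPM (637 to 727) and 651 CPM (600 to 705) (ratio 0.956, 0.861 to 1.06). In the T-like cluster without a subset name the levels were 228 and 227 CPM. The thinned share of CD8-like cells with a Tnfrsf9 UMI was 47.9% (42.1 to 53.6) in vehicle against 43.1% (38.3 to 48.0) in LC427. Unthinned, these shares were 75.6% and 60.0%, at median depths of 3325 and 1740 UMIs.

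Cd27, the receptor already present on resting T cells, had 116 CPM (98.8 to 136) in vehicle against 85.4 CPM (67.6 to 106) in LC427 CD8-like cells (ratio 0.733, 0.552 to 0.968). Thinned shares were 12.2% (8.75 to 16.4) and 7.62% (5.27 to 10.6), and unthinned shares 35.3% and 16.7%. By depth of the cells, the ratio was 0.592 (0.339 to 1.06) at 1000 to 2000 UMIs, 0.479 (0.274 to 0.819) at 2000 to 4000 UMIs and 0.942 (0.535 to 1.57) above. CD27 transcript was thus lower in the LC427 library at each depth, although the intervals of the first and the last group include 1. CD4/Treg-like cells had 119 and 122 CPM, and the T-like cluster without a subset name 105 and 66.7 CPM (ratio 0.634, 0.286 to 1.27), a ratio that turned to 1.10 after thinning.

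**Figure D1:**
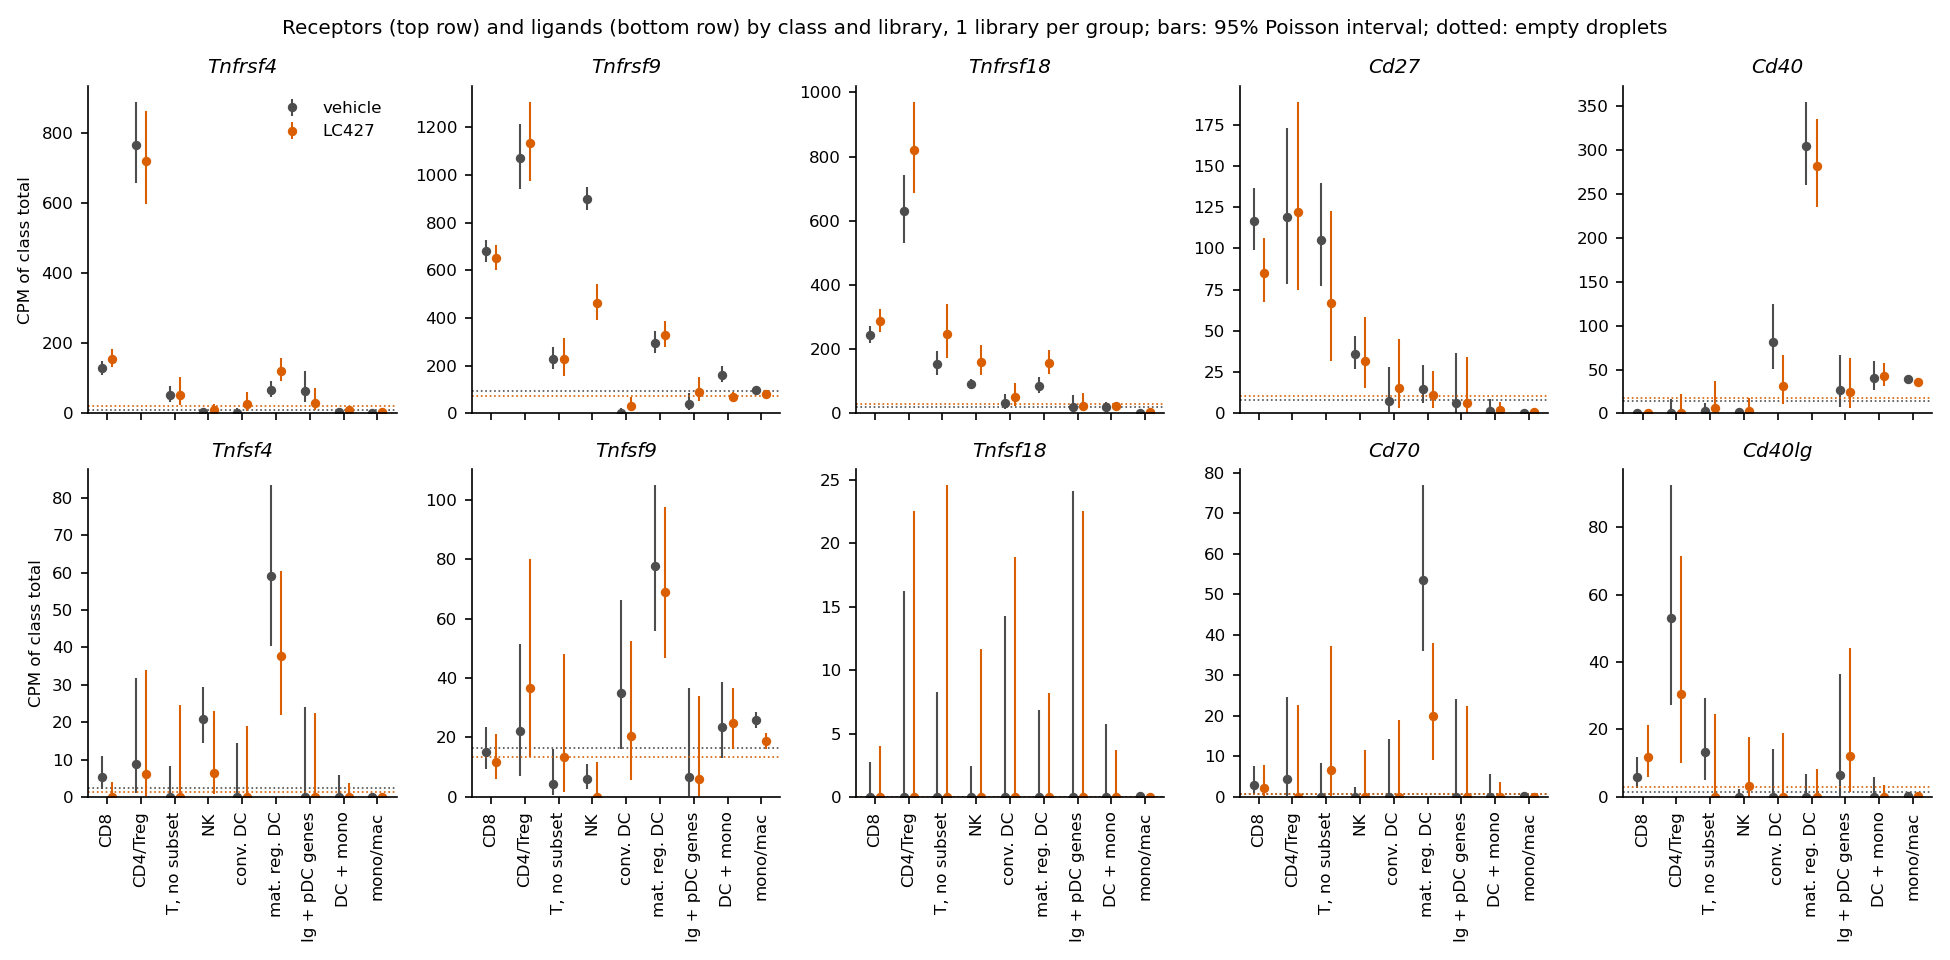
CPM of the class total (vertical axis, linear, a scale of its own in each panel) of the 5 receptors (top) and their 5 ligands (bottom) in 9 cell classes, vehicle in grey and LC427 in orange, 1 library per group. Bars are 95% Poisson intervals and dotted lines the empty-droplet level. OX40 and GITR peak in CD4/Treg-like cells. They also stand above the dotted lines in other classes, such as mature regulatory DC-like cells, and GITR does so in NK-like cells. Cd40, Tnfsf4, Tnfsf9 and Cd70 peak in mature regulatory DC-like cells ("Ig + pDC genes" is the cluster with immunoglobulin and plasmacytoid DC genes).

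CD40L transcript was sparse. Cd40lg had 52.9 CPM (27.4 to 92.5) in vehicle CD4/Treg-like cells and 30.6 CPM (9.94 to 71.4) in LC427, from 12 and 5 UMIs. CD8-like cells had 6.05 and 11.9 CPM from 8 and 11 UMIs. The empty-droplet level was 1.35 and 3.02 CPM, so the CD4/Treg-like level lies above background in each library, and a difference between them was not detectable at this depth.

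CD8-like cells, CD4/Treg-like cells and the T-like cluster without a subset name were also gated by their own UMIs. A cluster with both T cell and myeloid genes (103 vehicle and 324 LC427 cells) was left out of the gates. Its leading genes were Tnfrsf4, Icos, Cd3d, Ctla4 and Tnfrsf18. It held 167 and 258 Tnfrsf4 UMIs and 114 and 337 Tnfrsf18 UMIs. CD4/Treg-like cells held 174 and 118 Tnfrsf4 UMIs and 143 and 134 Tnfrsf18 UMIs. The gates thus leave out a large part of the OX40 and GITR UMIs, above all in LC427. Cells with Foxp3 (26 vehicle and 27 LC427 cells) were taken whether or not they had Cd4 or Cd8. The other gates were Cd4 but neither Foxp3 nor Cd8 (44 and 41), and Cd8 but neither Cd4 nor Foxp3 (306 and 345). Cells with Foxp3 had the highest OX40 and GITR levels of the 3 gates in both libraries, with intervals that overlapped those of the Cd4 gate for OX40 in vehicle and for GITR. Their Tnfrsf4 level was 760 CPM (608 to 938) and 911 CPM (659 to 1227), against 534 and 354 CPM with Cd4 and 134 and 128 CPM with Cd8. Their Tnfrsf18 level was 698 and 974 CPM, against 427 and 553 CPM with Cd4 and 251 and 266 CPM with Cd8.

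The Foxp3 and Cd4 gates differed in their 4-1BB ratio. Tnfrsf9 had 1051 CPM (871 to 1258) in vehicle against 1461 CPM (1137 to 1849) in LC427 cells with Foxp3 (ratio 1.39, 1.02 to 1.89). In cells with Cd4 but no Foxp3 it had 1057 CPM (859 to 1287) and 652 CPM (496 to 841) (ratio 0.617, 0.439 to 0.860). In vehicle these groups of cells had like 4-1BB levels, and in LC427 the intervals of the Foxp3 and Cd4 gates did not overlap. The difference between these ratios was not tested, since there is 1 library per group, and these gates hold 26 to 44 cells per library. The Foxp3 levels rest on 119 and 69 UMIs and the Cd4 levels on 99 and 59. Thinned shares of cells with a Tnfrsf9 UMI were 65.4% and 70.4% with Foxp3, and 50% and 39.0% with Cd4. Vehicle cells with Foxp3 held more UMIs per cell than LC427 ones, and the part of depth in the ratio was not tested. For CD40L, Cd40lg had 96.1 CPM (43.9 to 182) and 77.4 CPM (31.1 to 159) with Cd4 alone and 0 UMIs with Foxp3 in both libraries. The exact Poisson intervals of those counts of 0 reach up to 32.6 CPM in vehicle and 78.1 CPM in LC427, so the gates stand apart in vehicle and are not distinguishable in LC427. Cd27 with Cd8 had 122 CPM (104 to 143) and 79.0 CPM (60.7 to 101) (ratio 0.647, 0.475 to 0.872).

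**Figure D2:**
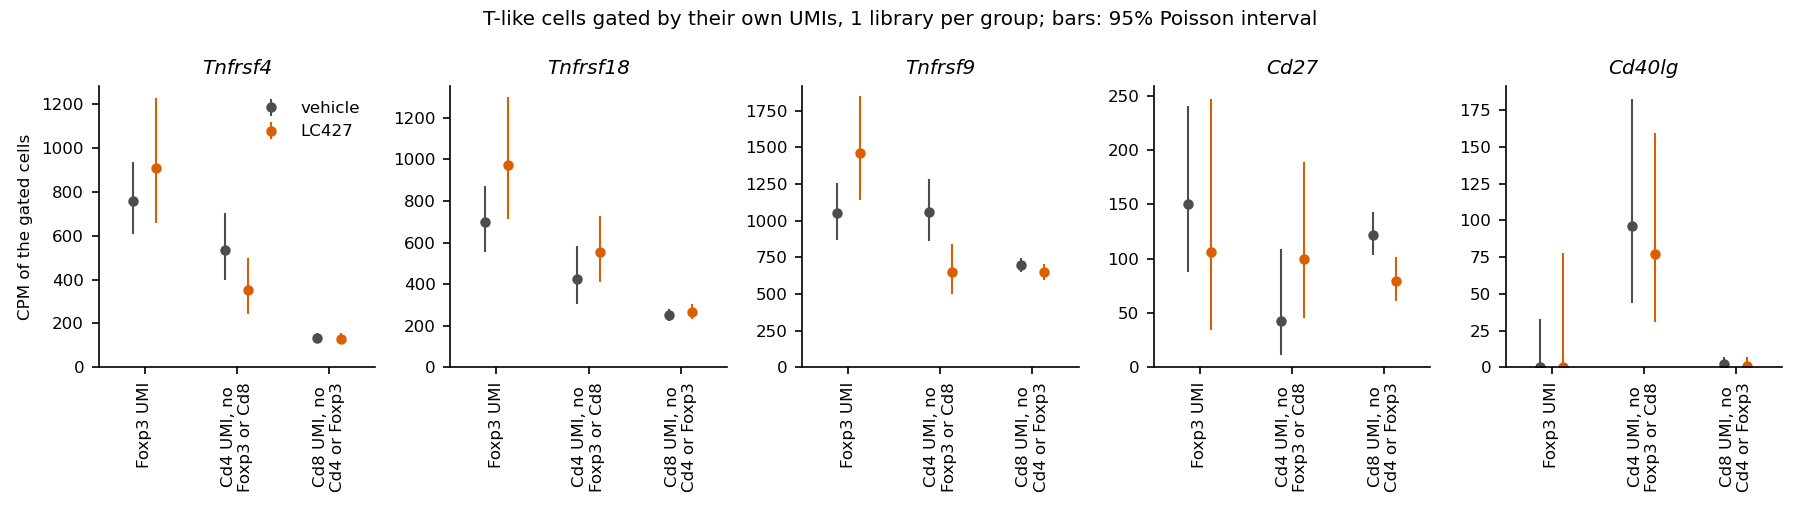
CPM of 4 receptors and Cd40lg (vertical axes, linear) in T-like cells gated by a Foxp3, Cd4 or Cd8 UMI, vehicle in grey and LC427 in orange, with 95% Poisson intervals. The cluster with both T cell and myeloid genes is left out. Tnfrsf9 stands at 1051 and 1461 CPM with Foxp3 and at 1057 and 652 CPM with Cd4 alone.

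OX40 and 4-1BB transcripts were set side by side within cells. After thinning, 31 of the 47 vehicle CD4/Treg-like cells with a Tnfrsf4 UMI also had a Tnfrsf9 UMI, or 66.0%, against 34.8% of the other cells of the class. In LC427 the same shares were 70.7% (29 of 41 cells) and 47.1%. In vehicle CD8-like cells 82.4% of the 34 cells with Tnfrsf4 also had Tnfrsf9, against 43.5% of the rest, and in LC427 54.2% of 48 cells against 41.7%. Cells with OX40 transcript thus carried 4-1BB transcript more often than the other cells of their class in both libraries, as a description of these cells. No interval was computed for these shares, so whether each gap passes counting error was not tested. Other pairs did not all do so. Tnfrsf18 was found in 47.1% of vehicle CD8-like cells with Tnfrsf4 against 18.6% of the rest, and in LC427 in 37.5% against 21.8%. It was found in 44.7% of vehicle CD4/Treg-like cells with Tnfrsf4 against 32.6% of the rest, and in LC427 in 53.7% against 54.9%. Tnfrsf9 was found in 53.0% of vehicle CD8-like cells with Tnfrsf18 against 46.4% of the rest, and in LC427 in 39.4% against 44.2%. In NK-like cells the same shares were 34.4% against 34.9% in vehicle and 28.6% against 33.1% in LC427, so GITR and 4-1BB were not seen together more often there.

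In NK-like cells 4-1BB was lower in the LC427 library and GITR higher. Tnfrsf9 had 901 CPM (854 to 950) in vehicle against 463 CPM (391 to 544) in LC427 (ratio 0.513, 0.430 to 0.609) from 1378 and 146 UMIs. Thinned shares of cells with a Tnfrsf9 UMI were close, 34.8% (29.9 to 40.1) and 32.5% (25.2 to 40.5), and unthinned 56.1% and 44.2%, at median depths of 2536 and 1653.5 UMIs.

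Split by depth, the 4-1BB difference stood in the deepest NK-like cells. Among cells of 1000 to 2000 UMIs Tnfrsf9 had 287 CPM in 130 vehicle cells and 370 CPM in 103 LC427 cells (ratio 1.29, 0.869 to 1.91). At 2000 to 4000 UMIs it had 570 and 565 CPM (ratio 0.992, 0.732 to 1.33). At 4000 UMIs and more it had 1154 CPM in 90 vehicle cells and 504 CPM in 12 LC427 cells (ratio 0.437, 0.297 to 0.620). In vehicle the 4-1BB level was higher in each deeper group of cells, and 90 of the deepest NK-like cells were from vehicle and 12 from LC427. The ratio was 0.778 after thinning and 0.733 as a mean of per-cell CPM, neither past 1.5-fold.

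Tnfrsf18 in NK-like cells had 92.2 CPM (77.6 to 109) in vehicle against 162 CPM (120 to 212) in LC427 (ratio 1.75, 1.25 to 2.43). By depth its ratio was 1.31, 1.67 and 1.47 from the shallowest to the deepest group. Each of these intervals includes 1, so no single depth group shows a difference beyond counting error. Thinned shares of cells with a Tnfrsf18 UMI were 9.07% (6.28 to 12.6) and 13.6% (8.64 to 20.1), and unthinned 26.9% and 25.3%. The empty-droplet level of Tnfrsf18 was 21.4 CPM in vehicle and 29.6 CPM in LC427, and its part in the ratio was not tested. Cd27 had 36.0 and 31.7 CPM. Tnfsf4, the OX40 ligand, had 20.9 CPM in vehicle against 6.34 CPM in LC427 (ratio 0.303, 0.0352 to 1.19) from 32 and 2 UMIs. The vehicle level is above the 2.44 CPM of empty droplets, the LC427 interval (0.767 to 22.9) includes their 1.34 CPM, and the ratio turned to 2.29 after thinning, where 3 UMIs were left. Of 4 members measured (at least 20 UMIs) in NK-like cells, 2 were at least 1.5-fold lower and 1 higher, where 16.1% of all measured genes were lower and 23% higher.

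Mature regulatory DC-like cells, the migratory Ccr7-positive state, had the highest level of Cd40 and of 3 ligands in both libraries. The interval stood apart from that of the next class for Cd40 in both libraries. For Tnfsf4 and Cd70 it did so in vehicle only, and for Tnfsf9 in neither library. Cd40 had 305 CPM (260 to 355) in vehicle against 282 CPM (235 to 335) in LC427 (ratio 0.924, 0.727 to 1.17). Thinned shares with a Cd40 UMI were 20.9% (14.3 to 29.0) and 25.5% (18.9 to 33.0), and unthinned 45.7% and 45.9%. Tnfsf9, the 4-1BB ligand, had 77.6 CPM (55.9 to 105) and 68.8 CPM (46.7 to 97.6) (ratio 0.886, 0.539 to 1.44). CD40 and 4-1BBL were thus at like levels in this class, within counting error.

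CD70 was the member with the clearest lower level there. Cd70 had 53.6 CPM (35.9 to 77.0) in vehicle against 19.97 CPM (9.13 to 37.9) in LC427 (ratio 0.373, 0.155 to 0.809) from 29 and 9 UMIs. It was at most 6.67 CPM in every other T, NK, DC or macrophage class of either library, and 0.813 and 0.672 CPM in empty droplets. Tnfsf4 had 59.1 CPM (40.4 to 83.5) and 37.7 CPM (22.0 to 60.4) (ratio 0.638, 0.332 to 1.18) whose interval includes 1. The share of cells with a Cd70 UMI was 10.9% in vehicle and 5.10% in LC427 without thinning, and 3.88% (1.27 to 8.81) and 1.91% (0.396 to 5.48) with it. Median depths were 3210 and 2363 UMIs.

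T cell receptors were read in the same dendritic cells. Tnfrsf4 had 66.5 CPM (46.6 to 92.1) in vehicle against 122 CPM (91.9 to 159) in LC427 (ratio 1.83, 1.18 to 2.87). Tnfrsf18 had 85.0 CPM (62.2 to 113) and 158 CPM (123 to 199) (ratio 1.85, 1.26 to 2.75). Tnfrsf9 had 296 and 331 CPM (ratio 1.12, 0.888 to 1.41). T cell RNA differed in the same direction: the 8 T cell markers, all 8 detected in each library, summed to 157 CPM in vehicle against 461 CPM in LC427, and 8.53% and 21.02% of cells had at least 1 of them. Without those cells the OX40 ratio was 1.08, the GITR ratio 1.36, the Cd70 ratio 0.407 and the Tnfsf4 ratio 0.554. The lower CD70 level thus holds without the cells that carry T cell RNA, and OX40 and GITR do not pass 1.5-fold without them. Of 7 members measured in this class 2 were lower and 2 higher, where 9.94% of all measured genes were lower and 18.7% higher.

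GITRL was almost absent. Tnfsf18 had 1 UMI in 5025 vehicle cells, in a monocyte/macrophage-like cell, and 0 in 6008 LC427 cells. It had 0 UMIs in the empty droplets too. A count of 0 (3 cells of the total) allows up to 2.33% of vehicle and 1.91% of LC427 mature regulatory DC-like cells to have a UMI after thinning, and up to 8.33% and 7.32% of conventional DC-like cells. GITRL was not detectable at this depth in the DC classes.

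In conventional DC-like cells Cd40 was the member with enough UMIs. Conventional DC-like cells had 81.4 CPM of Cd40 (50.4 to 124) in vehicle against 30.8 CPM (11.3 to 67.1) in LC427 (ratio 0.378, 0.125 to 0.969) from 21 and 6 UMIs. With a minimum of 500 UMIs per cell that ratio was 1.06, and with cells gated by their own UMIs 1.23, so its direction turned. It was the 1 member measured there, in a class where 14.8% of all measured genes were lower and 14.7% higher. In the cluster with immunoglobulin and plasmacytoid DC genes Tnfrsf9 had 39.3 and 91.7 CPM (ratio 2.33, 0.856 to 7.34) from 6 and 15 UMIs, and a ratio of 0.356 after thinning. The empty-droplet level of Tnfrsf9 was 93.5 and 75.2 CPM. The vehicle level, with an interval of 14.4 to 85.5 CPM, lay under it, and the LC427 interval (51.3 to 151) included it. Conventional DC-like cells had 3.88 and 30.8 CPM of Tnfrsf9, from 1 and 6 UMIs. The part of empty-droplet RNA in these levels was not tested. In the cluster with immunoglobulin and plasmacytoid DC genes, 17.4% of all measured genes were lower and 16.1% higher.

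The cluster with both DC and monocyte genes held less 4-1BB in LC427. Tnfrsf9 had 163 CPM (133 to 197) in vehicle against 69.6 CPM (54.3 to 88.0) in LC427 (ratio 0.428, 0.312 to 0.586). The vehicle level is above the 93.5 CPM of empty droplets and the LC427 level is not above its 75.2 CPM. Thinned shares were 11.5% (6.55 to 18.2) and 4.05% (2.17 to 6.83), and unthinned 26.0% and 10.3%. With a minimum of 500 UMIs, which changes the cluster's cells, the ratio was 0.680. Cd40 had 40.6 and 42.8 CPM, Tnfsf9 23.4 and 24.9 CPM and Tnfrsf18 20.3 and 22.9 CPM, all with ratios near 1 and the last at the empty-droplet level. Of these 4 members 1 was lower and 0 higher, where 7.85% of all measured genes were lower and 16.1% higher.

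**Figure D3:**
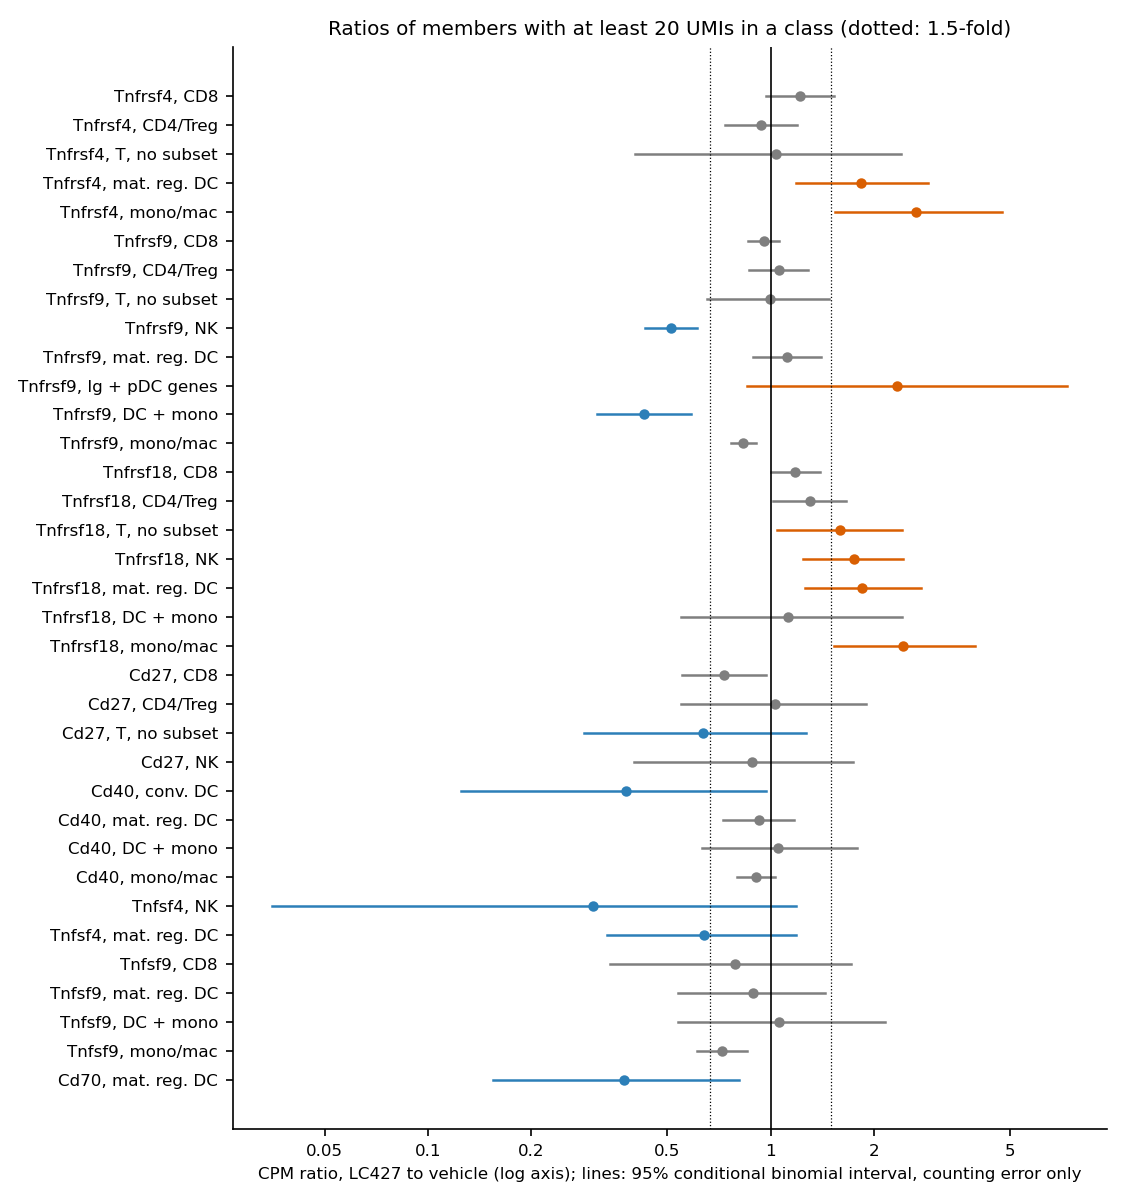
Ratio of LC427 to vehicle CPM (horizontal axis, log scale) for every receptor or ligand with at least 20 UMIs in a T, NK, DC or macrophage class, with 95% intervals for counting error. Blue points are at least 1.5-fold lower in LC427, orange points at least 1.5-fold higher and grey points neither, and dotted lines mark 1.5-fold.

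In monocyte/macrophage-like cells the class levels of CD40, 4-1BB and 4-1BBL were slightly lower in LC427, with an interval that includes 1 for CD40. Cd40 had 39.4 CPM (36.3 to 42.7) in vehicle against 35.7 CPM (32.3 to 39.4) in LC427 (ratio 0.907, 0.797 to 1.03). Tnfsf9 had 25.8 CPM (23.3 to 28.5) and 18.7 CPM (16.2 to 21.3) (ratio 0.722, 0.608 to 0.856). Tnfrsf9 had 100.3 CPM (95.3 to 105) and 83.5 CPM (78.3 to 89.0) (ratio 0.833, 0.767 to 0.904). The 4-1BB levels are close to the 93.5 and 75.2 CPM of empty droplets, whereas CD40 lies above its 14.4 and 17.1 CPM and 4-1BBL above its 16.5 and 13.4 CPM. Thinned shares were 4.34% (3.68 to 5.08) and 3.78% (3.20 to 4.42) for Cd40, 2.63% (2.12 to 3.22) and 1.70% (1.32 to 2.15) for Tnfsf9, and 6.35% (5.55 to 7.22) and 5.40% (4.72 to 6.15) for Tnfrsf9. Unthinned, they were 13.02% and 8.27%, 9.03% and 4.89%, and 13.8% and 9.41%, at median depths of 3612 and 2277 UMIs. By depth of the cells, the Tnfrsf9 ratio was 0.830 (0.640 to 1.08) at 1000 to 2000 UMIs and 1.09 (0.931 to 1.27) at 2000 to 4000 UMIs. Above that it was 0.776 (0.690 to 0.872), so its direction turned in the middle group. The Tnfsf9 ratio was 0.933 (0.562 to 1.59), 0.737 (0.538 to 1.01) and 0.667 (0.515 to 0.857) in the same groups.

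The CD40 ratio varied among single macrophage clusters. It was under 1 in 8 of 8 clusters with at least 20 Cd40 UMIs, from 0.364 to 0.965, with a median of 0.621. The lowest, 0.364 (0.176 to 0.679), stood in a cluster led by Ccl8 and Cbr2, with 33.9 CPM in vehicle against 12.3 CPM in LC427. Cells led by Cxcl3 and Mmp12 had 21.6 and 12.4 CPM (ratio 0.571, 0.362 to 0.882), and cells led by Ms4a7 and Cx3cr1 46.7 and 28.1 CPM (ratio 0.601, 0.427 to 0.841). The empty-droplet level of Cd40 was 14.4 and 17.1 CPM. The LC427 levels of 4 clusters, led by Ccl8, Cxcl3, Hist1h2ae and Hspa1b (12.3, 12.4, 13.1 and 16.5 CPM), lie under it. CD8-like cells had 0.756 and 0 CPM of Cd40, so cells can lie far under the empty-droplet level. Its part in the cluster levels was not tested. The cells led by Ly6i and Nos2, the latter the inducible nitric oxide synthase, had more Cd40, 89.5 and 81.3 CPM (ratio 0.908, 0.720 to 1.15). They were 349 of the vehicle and 942 of the LC427 cells of the class, and they held 120 of the 595 vehicle and 199 of the 406 LC427 Cd40 UMIs of the class. The highest level, 129 and 125 CPM (ratio 0.965, 0.628 to 1.48), was in a cluster led by interferon-response genes such as Rsad2 and Ifit2.

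The genes of 4-1BB and its ligand were also compared by cluster. Tnfsf9 was lower in LC427 in 6 of 6 clusters measured, with ratios from 0.453 to 0.922 and a median of 0.749, and the intervals of 5 of them include 1. Tnfrsf9 was lower in 6 of 7, with ratios from 0.203 to 1.39. The exception was a cluster led by the heat-shock genes Hspa1b and Hspa1a, where it had 172 CPM (from 314 UMIs) in vehicle against 239 CPM (from 203 UMIs) in LC427 (ratio 1.39, 1.16 to 1.67). In the cells led by Ly6i and Nos2 Tnfrsf9 had 116 and 44.5 CPM (ratio 0.383, 0.297 to 0.492). The 4-1BB level spanned 11.1 to 229 CPM over the clusters of the vehicle library, on both sides of the 93.5 CPM of its empty droplets. Some of these clusters thus lie well above the empty-droplet level and others well below.

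**Figure D4:**
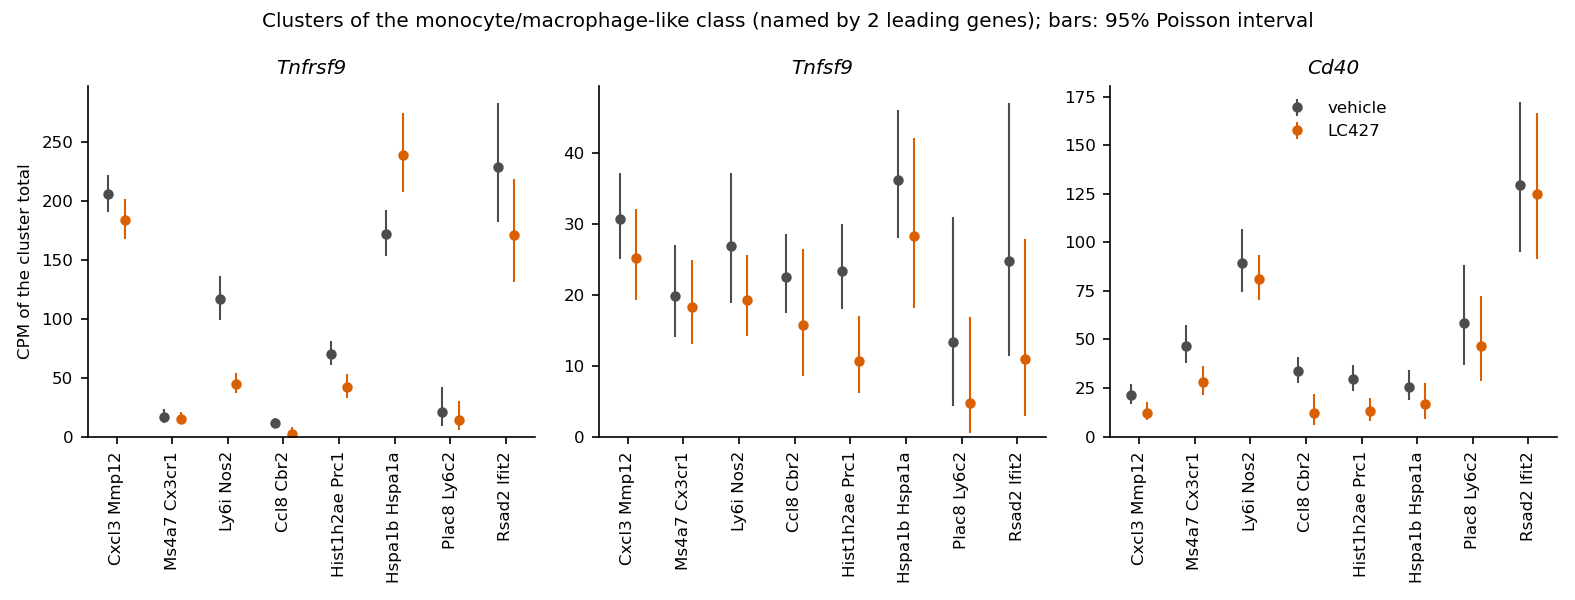
CPM of Tnfrsf9, Tnfsf9 and Cd40 (vertical axes, linear) in the 8 monocyte/macrophage-like clusters with at least 50 cells in each library, each named by its 2 leading genes, vehicle in grey and LC427 in orange, with 95% Poisson intervals. Cd40 in LC427 is below vehicle in every cluster shown, and Tnfrsf9 is above vehicle only in the cluster led by Hspa1b and Hspa1a.

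OX40 and GITR transcripts in macrophages stayed under the background. Tnfrsf4 had 1.39 CPM in vehicle against 3.70 CPM in LC427 (ratio 2.66, 1.54 to 4.73), and Tnfrsf18 had 1.99 and 4.84 CPM (ratio 2.44, 1.53 to 3.94). Both genes lie far under their empty-droplet levels of 10.0 and 20.2 CPM for Tnfrsf4 and 21.4 and 29.6 CPM for Tnfrsf18, and are read as background. The T cell markers summed to 13.8 and 25.4 CPM in the same cells. These were the 2 of 5 members past 1.5-fold higher in macrophages, with 0 lower, where 10.9% of all measured genes were higher and 6.25% lower.

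In the T classes few members passed 1.5-fold. Of 5 members measured in CD8-like cells 0 were lower and 0 higher, where 11.1% of all measured genes were lower and 13.7% higher. Of 4 in CD4/Treg-like cells 0 passed either way, where 16.1% of all measured genes were lower and 16.3% higher. In the T-like cluster without a subset name Cd27 was lower, in 5 of 10 alternatives, and Tnfrsf18 higher, in 8 of 10, among 4 measured, where 14.4% and 20.7% of genes were. A further cluster that carried both T cell and myeloid genes (103 and 324 cells) had 7 members measured. There Tnfrsf4, at 250 and 156 CPM with a ratio of 0.626 (0.513 to 0.765), and Cd40lg, at 26.9 and 13.9 CPM, were lower and 0 were higher, where 10.2% and 12.9% of genes were. Over the other 9 classes 35 pairs of member and class were measured, 7 of them lower and 7 higher in LC427, where 11.2% of all pairs of gene and class were lower and 16% higher. Of the 14, macrophage Tnfrsf4 and Tnfrsf18 lie under background, and Tnfrsf9 in the cluster with immunoglobulin genes, Cd40 in conventional DC-like cells, Tnfsf4 in NK-like cells and Cd27 in the T-like cluster without a subset name turned direction under an alternative.

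The wider TNF family was read from 4 lists, of 18 other receptors, 12 other ligands, 11 TRAF and related adaptors and 14 NF-kB genes and targets. Among CD8-like cells, 3 of 7 ligands measured were lower and 1 was higher, and the median of their log2 ratios was -0.46, against 0.05 over all genes measured, of which 11.1% were lower and 13.7% higher. Ltb, the lymphotoxin subunit, had 353 and 200.02 CPM (ratio 0.566, 0.475 to 0.673), and Tnfsf11, which encodes RANKL, had 68.1 and 38.9 CPM (ratio 0.572, 0.377 to 0.850). In CD4/Treg-like cells 3 of 4 ligands were lower, with a median of -0.73 against 0.02 for all genes, of which 16.1% were lower and 16.3% higher. There Ltb had 626 and 349 CPM (ratio 0.557, 0.402 to 0.762), and Tnfsf11 229 and 97.9 CPM (ratio 0.427, 0.228 to 0.760). Lymphotoxin beta and RANKL transcripts were thus lower in both T classes, where the costimulatory receptors were not past 1.5-fold.

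Of the adaptors and NF-kB genes in CD4/Treg-like cells, 1 of 6 and 3 of 9 were lower and 1 and 0 higher. Their median log2 ratios were 0.11 and -0.18 against 0.02 for all genes, of which 16.1% were lower and 16.3% higher. The adaptor counts lie near those shares. The higher adaptor was Tank, at 48.5 and 91.8 CPM (ratio 1.89, 0.812 to 4.55) from 11 and 15 UMIs. Traf1, an adaptor bound by 4-1BB, had 278 and 153 CPM (ratio 0.551, 0.332 to 0.888). Nfkb1, which encodes an NF-kB subunit, had 551 and 300 CPM (ratio 0.544, 0.383 to 0.762), and Tnfaip3, an NF-kB target that encodes the brake A20, had 803 and 520.2 CPM (ratio 0.648, 0.495 to 0.843). In NK-like cells 2 of 10 adaptors were lower and 3 higher, and 3 of 14 NF-kB genes lower and 3 higher, with medians of -0.01 and -0.03 against 0.13 for all genes, of which 16.1% were lower and 23% higher. These counts lie near those shares. Traf1 there had 116 and 57.0 CPM (ratio 0.490, 0.284 to 0.797). Nfkbie, an NF-kB inhibitor gene, had 35 UMIs in vehicle and 0 in LC427. The higher NF-kB genes included Chuk at 30.1 and 66.5 CPM (ratio 2.21, 1.25 to 3.78) and Ikbkb at 41.8 and 76.0 CPM (ratio 1.82, 1.09 to 2.95). The higher adaptors included Traf2 at 24.8 and 44.4 CPM (ratio 1.79, 0.894 to 3.37).

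Of the other receptors in monocyte/macrophage-like cells 1 of 12 was lower and 1 higher, and of the other ligands 0 of 9 were lower and 3 higher, where 6.25% of all measured genes were lower and 10.9% higher. Tnfrsf13b, which encodes TACI, a receptor for the B cell survival factors BAFF and APRIL, had 42.0 and 69.0 CPM there (ratio 1.64, 1.48 to 1.83), above its empty-droplet level of 24.7 and 39.6 CPM, which was also higher in LC427. Tnfsf13b, which encodes BAFF, had 11.8 and 32.7 CPM (ratio 2.78, 2.32 to 3.34), with 7.04 and 13.8 CPM in empty droplets. In mature regulatory DC-like cells Tnfrsf13b had 11.1 and 44.4 CPM from 6 and 20 UMIs, and in conventional DC-like cells 19.4 and 77.0 CPM from 5 and 15 UMIs. The vehicle values of both DC classes lie under the empty-droplet level. Of the other receptors 1 of 6 was lower and 1 higher in mature regulatory DC-like cells, where 9.94% and 18.7% of all genes were, and 0 of 3 were lower and 2 higher in conventional DC-like cells, where 14.8% and 14.7% were. In macrophages 0 of 11 adaptors and 0 of 14 NF-kB genes passed 1.5-fold, with medians of 0.12 and -0.12 against 0.13. In the cluster with DC and monocyte genes 4 of 13 NF-kB genes were lower and 2 higher, where 7.85% of all measured genes were lower and 16.1% higher. The lower ones included Nfkb2 at 65.7 and 32.8 CPM (ratio 0.500, 0.307 to 0.808), Nfkbia at 527 and 335 CPM and Nfkbie at 78.2 and 37.8 CPM. The higher ones were Bcl2l1 at 29.7 and 63.7 CPM (ratio 2.14, 1.27 to 3.79) and Chuk at 32.8 and 52.7 CPM (ratio 1.61, 0.952 to 2.80).

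Patterns over cell types were compared by the correlation of log2(CPM + 10) over 37 points, each a cluster in 1 library with at least 50 cells, and 6587 genes. These points share libraries and depth, so the values are descriptions. Tnfrsf4 and Tnfrsf18 had a correlation of 0.907 with each other, and Tnfrsf18 and Cd27 of 0.945. The genes most like Tnfrsf18 were Icos at 0.974, another costimulatory receptor, Ctla4 at 0.974 and Ltb at 0.964. Most like Tnfrsf4 were Cd6 at 0.948, Ctla4 at 0.937 and its genomic neighbour Sdf4 at 0.935, and among the 3 genes most like Cd27 were the T cell genes Cd2 at 0.975 and Trbc2 at 0.974. Among the 3 most like Tnfrsf9 were H2-Q6 at 0.818 and H2-Q7 at 0.810, MHC class I genes.

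Of the ligands, Tnfsf4 and Cd70 had a correlation of 0.814 with each other, whereas Tnfsf9 had 0.376 and 0.543 with them and Cd40lg 0.0866 and 0.0263. Cd40lg had 0.828 with Tnfrsf4 and 0.742 with Cd27, both receptors of T cells. For Tnfsf4 and Cd70, Mab21l3 was among the 3 closest genes of both, at 0.834 and 0.915. The others were Scin at 0.908 and Mreg at 0.835 for Tnfsf4, and Tmem150c at 0.926 and Gm13546 at 0.916 for Cd70. Tnfsf9 had no close match, with Insl6 at 0.742, Flrt3 at 0.714 and Got1 at 0.698, and Cd40 was nearest to Rasa4 at 0.881, Rnf19b at 0.878 and Gm34084 at 0.867. Cd40lg was nearest to Izumo1r, a folate receptor gene of CD4 T cells, at 0.905, to Neb at 0.868 and to A430093F15Rik at 0.838.

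The authors' own clusters also put the ligands with Ccr7. In the authors' deposited table of mean counts, Cd40, Cd70, Tnfsf4 and Tnfsf9 were all highest in cluster 12 of the vehicle library and cluster 7 of the LC427 library, which are also the clusters with most Ccr7, at 5.46 and 2.43. In the authors' deposited table Tnfrsf4 and Tnfrsf18 shared cluster 11 in vehicle (0.426 and 0.618) and cluster 3 in LC427 (0.443 and 0.689). The authors' deposited table puts Tnfrsf9 highest in cluster 7 of vehicle, at 2.28, and cluster 9 of LC427, at 1.13. Cluster 11 of vehicle had most Cd3e, Cd8a and Foxp3. Cluster 5, with most Cd4, was close behind it for Tnfrsf4, at 0.415. Cluster 7 of vehicle was not highest for Cd3e, Cd8a, Cd4 or Foxp3. In LC427, cluster 9 had most Cd3e and Cd8a, and cluster 3 most Foxp3 and Cd4. These tables were made and scaled for each library on its own, so their values are not compared between libraries.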

How the data were processed

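Droplet libraries of CD45+ tumour cells, 1 vehicle and 1 LC427, were grouped by the treatment label. The authors deposited unfiltered matrices of UMI counts per gene and barcode. Per the submitters' processing notes these come from Cell Ranger 3.0.1 with Seurat 3 on GRCm38 (mm10), while the file headers name Cell Ranger 4, so the version is uncertain. The authors also deposited mean counts per cluster, a signal scaled to 1 total per cluster, used only where named.

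Barcodes with 1000 or more UMIs, 400 or more genes and a mitochondrial share of up to 10% were kept (5245 vehicle, 6328 LC427; 137 and 12 were removed for mitochondrial share). The threshold that Scrublet sets itself marked 2 and 0 doublets, too few to be used, so the highest scores were left out at 0.8% per 1000 cells (220 and 320). Clustering of both libraries together (scanpy 1.11.5, leidenalg 0.10.2; 2000 variable genes, 30 components, 20 neighbours, resolution 1) left out the 10 members and the 4 TNF lists. Clusters were named from fixed markers, by a rule written after the clusters' markers, but not the members' values, were seen; T-like clusters were clustered again. UMIs were summed per class and library as CPM, with exact Poisson intervals, exact conditional binomial intervals for ratios and Clopper-Pearson intervals for shares. Genes with at least 20 UMIs in a class were measured, 1.5-fold was the size described, a count of 0 stood at 3 counts, and empty droplets were barcodes of 10 to 100 UMIs. Named genes were all members, up to 3 genes per list, class and direction past 1.5-fold with the interval bound farthest from 1, of which the text gives those it describes, and the 3 genes most like each member, of which some are not reported here. The computation was tested on simulated counts. The members and lists were chosen with earlier results of these data known.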

Additional observations from a re-analysis of the deposited data

Results flagged for a closer look

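A signal of a member lay outside the compared classes. Cells of a cluster with tumour or stromal genes such as Tm4sf1 and Sox9, 181 in vehicle and 367 in LC427, had 34.5 CPM of Tnfsf9 in vehicle (139 UMIs) and 10.9 CPM in LC427 (50 UMIs), a ratio of 0.318 (0.225 to 0.442). The empty-droplet level was 16.5 and 13.4 CPM, so the vehicle value is above it and the LC427 value is not. Thinned shares of these cells with a Tnfsf9 UMI were 2.76% (0.903 to 6.33) in vehicle and 1.09% (0.298 to 2.77) in LC427, with intervals that overlap. Unthinned shares were 38.1% and 10.9%, at median depths of 21188 and 10940 UMIs. The leucocyte gene Ptprc was seen in 7.18% of these vehicle cells and 5.72% of these LC427 cells, although the cells had been selected for CD45, so they are not counted among the T, NK, DC or macrophage cells of the report. Cd40, at 0.248 and 0.219 CPM, was near 0 in them.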

How the results depend on the processing

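No paired analysis was possible because each group has 1 library. Of 481 ratios recomputed under 15 alternatives, 456 lay within the counting interval of the reported ratio, 20 outside it, and 5 of pairs past 1.5-fold changed direction: Cd27 in the T-like cluster without a subset name after thinning (1.10), Tnfsf4 in NK-like cells after thinning (2.29, from 3 UMIs), Cd40 in conventional DC-like cells at a minimum of 500 UMIs (1.06) or with gated cells (1.23), and Tnfrsf9 in the cluster with immunoglobulin and plasmacytoid DC genes after thinning (0.356, from 3 UMIs). The cause was not tested, apart from the few UMIs left by thinning. Some alternatives could not change a given ratio. At least 50 UMIs for a measured gene leaves every ratio as it was. Leaving out cells with a T marker UMI touches only the DC and macrophage classes. Joining the T-like cluster without a subset name to NK-like cells touches only the NK-like ratios. Part of the agreement in these counts of alternatives was thus fixed in advance. The 7 lower pairs of member and class became 4 after thinning and 3 with at least 50 UMIs for a measured gene. The 7 higher pairs became 2 with cells gated by their own UMIs, 4 after thinning and 4 without cells that carry a T marker UMI, an alternative chosen after the data were seen, like the split by depth. Cd70 in mature regulatory DC-like cells was at least 1.5-fold lower under all 14 alternatives that gave it a value (0.279 to 0.459). Tnfrsf9 in NK-like cells passed 1.5-fold under 13 of 15 (0.469 to 0.778), and Cd27 in CD8-like cells passed it under 4 of 15 (0.567 to 0.747). With 1 library per group, depth and library cannot be told apart from treatment.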

Other observations

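Tnfrsf4 and the gene just before it were both highest in CD4/Treg-like cells. Sdf4 (chr4:155992872-156013610, plus strand), which encodes a calcium-binding protein of the Golgi, ends 232 bases before the GENCODE start of Tnfrsf4, and the RefSeq start of Tnfrsf4 is nearer still, 84 bases of intervening sequence past the end of Sdf4, shown above. Sdf4 had 820 CPM (707 to 947) in vehicle and 704 CPM (581 to 845) in LC427 CD4/Treg-like cells, against 352 and 317 CPM in CD8-like cells and 78.5 and 81.4 CPM in monocyte/macrophage-like cells. The same order, from CD4/Treg-like to CD8-like to monocyte/macrophage-like cells, held for Tnfrsf4 in both libraries. NK-like cells differ: Sdf4 had 128 and 111 CPM there, while Tnfrsf4, at 3.92 and 9.50 CPM, was under its empty-droplet level. The empty-droplet level of Sdf4 was 85.3 and 94.4 CPM. Whether reads that run from 1 gene into the other enter these counts was not tested, and the counts per gene do not show it.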
